A study of Mus musculus with 16 samples.

Results

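The SLC25 genes code for the mitochondrial solute carriers, and their RNA was followed here in the ventricles of newborn mice with and without Lrrc10. Members were the protein-coding genes whose mouse GENCODE symbol starts with Slc25a. The table of 51912 genes held 47 of them, and 43 were among the 20159 genes kept for testing, whose counts added up to 10 or more in each group. The 4 that missed this minimum were Slc25a21, Slc25a41, Slc25a48 and Slc25a54, none of which had more than 7 counts in a library.

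RNA sequencing covered 16 mice in 4 groups of 4. WT SH were wild-type C57BL/6J mice after sham surgery, KO SH were mice of a C57BL/6 background lacking Lrrc10 in the whole body (Lrrc10-/-) after sham surgery, WT MI were wild-type mice post-MI, and KO MI were Lrrc10-/- mice post-MI. Myocardial infarction (MI) was induced on postnatal day 1 by tying off the left anterior descending coronary artery, and sham mice went through the procedure without exposure of the heart or a ligature. Ventricles were collected 7 days after surgery, so every group is of one age. Because the whole ventricle was sequenced, fewer cells of a type and less RNA per cell cannot be told apart. The Lrrc10 gene, which codes for a cardiomyocyte protein, had from 1075 to 1850 counts in the libraries of WT SH and WT MI and 0 in all libraries of KO SH and KO MI.

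Carriers of this family sit, with few exceptions, in the inner mitochondrial membrane and move metabolites that cannot cross it alone. In heart muscle the adenine nucleotide carriers exchange the ATP made in the matrix for cytosolic ADP, the phosphate carrier brings in phosphate, and the malate-aspartate shuttle carriers move reducing equivalents inward. Other members carry fatty acyl groups bound to carnitine, nucleotides, cofactors, iron and amino acids.

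Libraries held from 33783874 to 57470159 counts, and KO MI replicate 7 was the shallowest. The 43 members made up between 0.223% and 0.298% of all counts in a library. Levels are given below as CPM, the count scaled by the TMM-adjusted library size, and levels of different genes are compared as CPM per kb of exon sequence. A floor of 3 counts, below which a gene is not told from absence, was equal to between 0.0577 and 0.0858 CPM. RNA of Xist stood above that of the Y-linked genes in 0 of 4 WT SH libraries and in 2 of 4 libraries of each other group, so a comparison with WT SH also compares different mixtures of the sexes. The labels name no litter or batch, and p-values measure the spread between these 16 animals.

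The family was dominated by the heart and muscle form of the adenine nucleotide carrier. Slc25a4 had a mean level of 491 CPM per kb over all libraries. It made up between 66.9% and 74.1% of the summed level per length of all 47 members, tested or not. The next members by level per length were Slc25a5, the adenine nucleotide carrier of dividing cells, at 72.5 CPM per kb, and Slc25a3, the phosphate carrier, at 50.4 CPM per kb. Slc25a11, which exchanges oxoglutarate for malate, followed at 18.6 CPM per kb and Slc25a46, an outer membrane protein of mitochondrial dynamics, at 10.4 CPM per kb. The order of these 5 was the same in the 4 group means. At the other end were Slc25a29 with 0.0667, Slc25a18 with 0.0547 and Slc25a43 with 0.0489 CPM per kb. Slc25a31, the adenine nucleotide carrier of the germ line, stood at 0.263 CPM per kb.

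**Figure D1:**
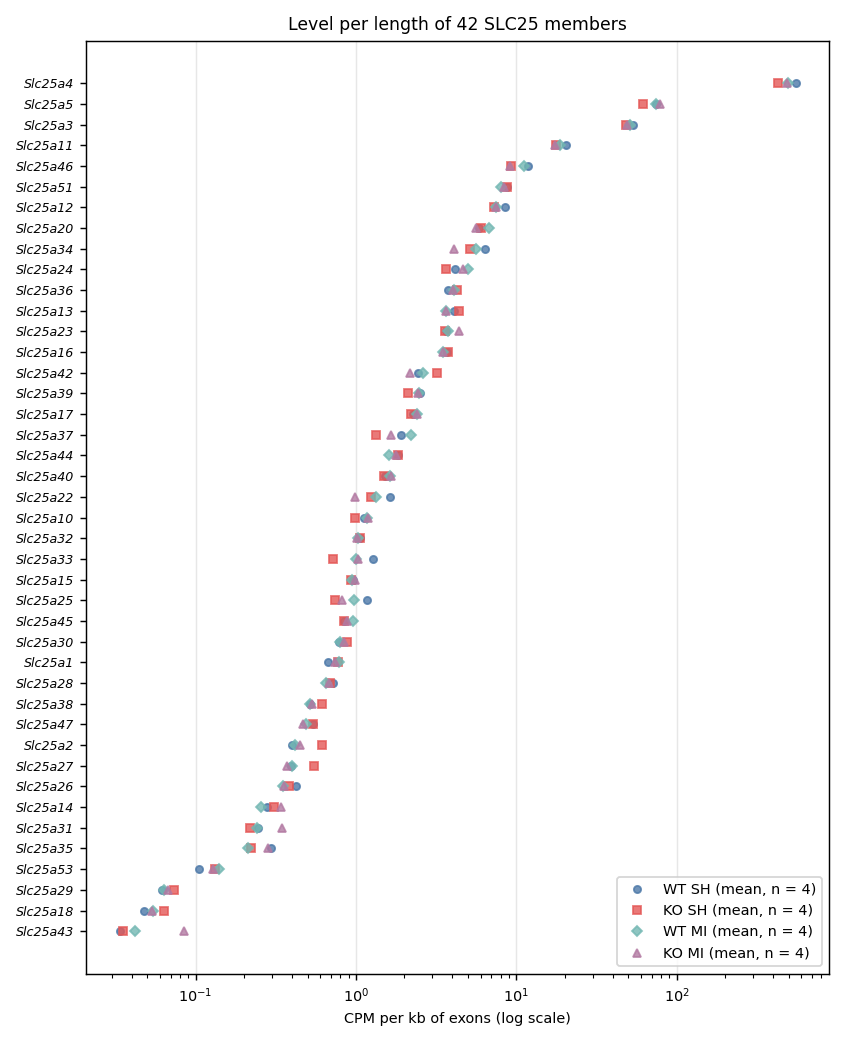
Level of 42 of the 43 members tested as CPM per kb of exon sequence on a log axis, with 1 symbol for the mean of each group (n = 4). Slc25a4 lies far to the right of every other member at a mean of 491 CPM per kb, and for most members the 4 group means lie close together.

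The sequence just upstream of 2 members is shown. Slc25a4 is the most abundant. Slc25a42 passed the test of KO MI against KO SH in every fit run, and so did Slc25a24, which is not shown. Each sequence shown is the 250 bases before the start of the canonical transcript in GENCODE M39, on the minus strand of GRCm39. Neither overlaps an annotated exon. The windows lie at chr8:46664326-46664575 for Slc25a4 and chr8:70664967-70665216 for Slc25a42. Capitals mark a match on either strand to TATAAA (the TATA box) or CCAAT (the CCAAT box).
Slc25a4: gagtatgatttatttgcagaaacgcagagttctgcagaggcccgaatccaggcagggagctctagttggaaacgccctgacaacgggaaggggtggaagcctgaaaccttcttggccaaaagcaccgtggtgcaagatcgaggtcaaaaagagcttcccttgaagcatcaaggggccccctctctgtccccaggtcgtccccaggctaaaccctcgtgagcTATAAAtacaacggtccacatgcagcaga
Slc25a42: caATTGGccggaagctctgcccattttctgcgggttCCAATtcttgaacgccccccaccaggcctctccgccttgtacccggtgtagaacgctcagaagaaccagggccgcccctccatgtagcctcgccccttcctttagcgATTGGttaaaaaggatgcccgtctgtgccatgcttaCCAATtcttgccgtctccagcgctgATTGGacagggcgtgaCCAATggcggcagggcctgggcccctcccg

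The TATA box letters of Slc25a4 ended 24 bases before the start, and 3 of the 43 members held them (Slc25a4, Slc25a35 and Slc25a45) against 11.9% of 21770 protein-coding genes. Slc25a42 held 6 matches to the CCAAT box letters. These letters occurred in 15 of the 43 windows and in 36.5% of all. These 2 motifs were added after the sequences were seen. Of 4 others, the E-box CACGTG occurred in 8 of the 43 windows (Slc25a1, Slc25a2, Slc25a14, Slc25a31, Slc25a32, Slc25a36, Slc25a46 and Slc25a51) and in 6.26% of all. The NRF1 site (GCGC, any base, then TGCGC) was found upstream of Slc25a3 and Slc25a31 against 3.7% of all, and the cAMP response element TGACGTCA upstream of Slc25a36 against 1.69% of all. The estrogen-related receptor element TNAAGGTCA was in 0 of the 43 windows and in 1.09% of all. A match is a description of letters and no measure of binding.

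The first comparison asked what the loss of Lrrc10 goes with in the uninjured heart. In KO SH against WT SH, 7 of the 43 members passed an adjusted p of 0.1 (edgeR quasi-likelihood test with Benjamini-Hochberg adjustment over all genes tested), and all 7 were lower in KO SH. Over all genes 12.3% passed, and 7.22% in the lower direction. Of the 7, Slc25a25 and Slc25a33 also changed by at least 0.5 on the log2 scale, which makes them differentially expressed genes (DEGs) by the thresholds used, against 5.01% of all genes and 2.53% in the lower direction. The median log2 fold change of the 43 members was -0.02, and 26 lay below 0 and 17 above. The median of all genes tested was 0.01. All KO SH libraries lay below all WT SH libraries for 10 members against 10.2% of all genes, and above them for 3 members, Slc25a27, Slc25a42 and Slc25a53, against 8.35% of all genes.

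Among the carriers of adenine nucleotides and phosphate, all 7 tested had a log2 fold change below 0 in KO SH, and 2 passed the test. Their median of -0.20 was the value of Slc25a31 (SE 0.58), which had only 2 to 51 counts in a library. Of all 20159 genes tested, 9881 lay below 0. Slc25a4 measured 1961, 1544, 1600 and 1431 CPM in WT SH and 1282, 1280, 1275 and 1260 CPM in KO SH. The KO SH libraries lay close together and all below the lowest WT SH library, and WT SH replicate 1 stood far above the rest of its group. Slc25a4 was lower in KO SH by a log2 fold change of -0.36 (SE 0.08, edgeR adjusted p = 0.0132), and by -0.26 without WT SH replicate 1, where it still passed. Slc25a25, a carrier that exchanges ATP-Mg for phosphate under the control of cytosolic calcium, measured 11.8, 10.7, 9.01 and 11.0 CPM in WT SH and 6.72, 6.51, 6.68 and 7.24 CPM in KO SH. Its level thus fell from 10.6 ± 1.17 CPM to 6.79 ± 0.316 CPM (SD, n = 4), a log2 fold change of -0.65 (SE 0.09, edgeR adjusted p = 0.000344), with a clear gap between the groups. This was the smallest adjusted p of the family in any comparison. The related calcium-regulated carriers Slc25a23 and Slc25a24 had log2 fold changes of -0.02 (SE 0.09) and -0.19 (SE 0.09) and did not pass. Slc25a5 measured 125, 132, 132 and 139 CPM in WT SH and 109, 111, 111 and 104 CPM in KO SH, which did not overlap, but its adjusted p of 0.119 (edgeR) missed the threshold. Slc25a3 stood at 363 ± 12.7 CPM in WT SH and 329 ± 13.7 CPM in KO SH (SD, n = 4; edgeR adjusted p = 0.312).

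Carriers of the malate-aspartate shuttle were among the members that fell. Slc25a11 measured 87.1, 81.8, 89.6 and 82.7 CPM in WT SH and 70.8, 79.8, 72.3 and 72.4 CPM in KO SH, a log2 fold change of -0.21 (SE 0.06, edgeR adjusted p = 0.0433). Slc25a12, the aspartate-glutamate carrier of heart and brain, measured 74.3, 69.5, 70.2 and 68.7 CPM in WT SH and 59.8, 61.4, 59.1 and 62.1 CPM in KO SH, a log2 fold change of -0.22 (SE 0.08, edgeR adjusted p = 0.0895). Neither pair of groups overlapped, and neither change reached the minimum fold of a DEG. Slc25a12 no longer passed in 7 of the 8 fits without 1 library (adjusted p up to 0.221) or without the filter on counts (adjusted p = 0.117), and Slc25a11 no longer passed in 4 of the 8. Slc25a13, the second aspartate-glutamate carrier, had 41.4 ± 2.71 CPM in WT SH and 44.8 ± 2.68 CPM in KO SH (SD, n = 4; edgeR adjusted p = 0.539). Slc25a22, which carries glutamate with a proton, measured 10.6, 11.5, 9.32 and 11.3 CPM in WT SH and 8.43, 8.10, 8.41 and 7.50 CPM in KO SH, a log2 fold change of -0.40 (SE 0.12, edgeR adjusted p = 0.0490). With a term for sex in the fit its log2 fold change was -0.35 and it no longer passed (adjusted p = 0.118), nor did it in 4 of the 8 fits without 1 library. Of the 10 members that carry amino acids or carnitine, the other 8 did not pass, and among them Slc25a20, the carnitine-acylcarnitine carrier, stood at 41.0 ± 2.16 CPM in WT SH and 42.1 ± 0.624 CPM in KO SH (SD, n = 4).

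One of the 13 members that carry cofactors, nucleotides, glutathione or metals passed. Slc25a33, a carrier of pyrimidine nucleotides into mitochondria, measured 4.92, 3.26, 2.95 and 3.36 CPM in WT SH and 1.71, 2.48, 2.21 and 1.78 CPM in KO SH. It fell by 0.83 on the log2 scale (SE 0.16, edgeR adjusted p = 0.00461), the largest fall of the family, and WT SH replicate 1 was again the highest library. Without that library the log2 fold change was -0.64 and it remained a DEG. The sister carrier Slc25a36 stood at 43.2 ± 4.89 CPM in WT SH and 49.5 ± 1.49 CPM in KO SH (SD, n = 4; edgeR adjusted p = 0.118). Slc25a42, which carries coenzyme A, measured 14.3, 17.2, 15.7 and 14.5 CPM in WT SH and 21.0, 20.6, 21.8 and 17.6 CPM in KO SH, without overlap but with an adjusted p of 0.136 (edgeR). Slc25a37, the mitoferrin of red cell precursors, stood at 11.5 ± 3.31 CPM in WT SH and 7.99 ± 0.511 CPM in KO SH (SD, n = 4; edgeR adjusted p = 0.139). The summed level of 7 erythroid markers ranged from 528 to 731 CPM in WT SH and from 417 to 498 CPM in KO SH, and its part in the Slc25a37 values was not tested.

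Slc25a46 was the one member of the uncoupling-protein-like, fission and orphan genes to pass, out of 10. It measured 87.6, 84.5, 76.3 and 71.4 CPM in WT SH and 65.0, 60.2, 63.0 and 63.5 CPM in KO SH, a log2 fold change of -0.35 (SE 0.07, edgeR adjusted p = 0.00713), with no overlap. Slc25a27, an uncoupling-protein-like carrier best known from brain, measured 3.92, 3.15, 4.86 and 4.84 CPM in WT SH and 5.23, 5.89, 5.36 and 6.74 CPM in KO SH (edgeR adjusted p = 0.124). For each of the 7 members that passed, the two-sided exact permutation test of log2(CPM + 0.05) values gave p = 0.0286, the smallest value that 4 libraries against 4 allow. Groups without overlap always give this value, so it adds nothing to the lack of overlap. Leaving out WT SH replicate 1 or KO SH replicate 4 brought the number of members past the adjusted p to 4 (beside 7.08% and 7.59% of all genes), and leaving out WT SH replicate 4 brought it to 10 (beside 14.3%), while Slc25a4, Slc25a25, Slc25a33 and Slc25a46 passed in all 8 fits without 1 library.

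**Figure D2:**
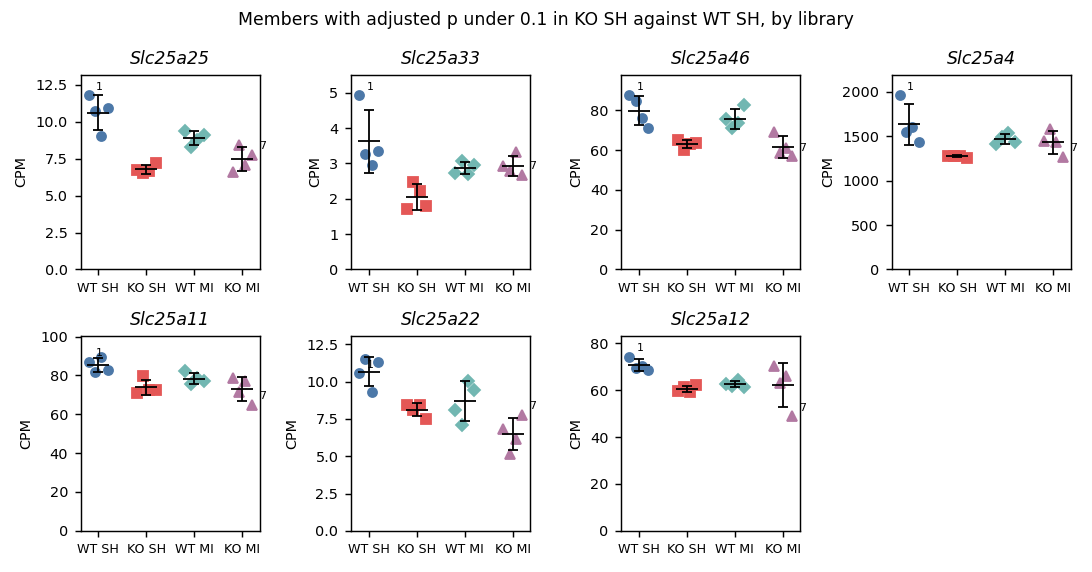
CPM by library for the 7 members with an adjusted p under 0.1 in KO SH against WT SH, with the 4 groups on the x axis, a linear y axis from 0, and the group mean and SD as a black line with bars. All KO SH squares lie below all WT SH circles in each panel, WT SH replicate 1 (marked 1) is the highest library for Slc25a4 at 1961 CPM and Slc25a33 at 4.92 CPM, and KO MI replicate 7 is marked 7.

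Cardiomyocyte marker RNA itself was higher in WT SH than in the other groups. The summed level of 10 cardiomyocyte markers ranged from 80121 to 93831 CPM in WT SH and from 72692 to 74854 CPM in KO SH without overlap. Of the 10, 5 were lower in KO SH with an adjusted p under 0.1 and 0 higher. The sum was also below WT SH in WT MI (71082 to 74453 CPM) and KO MI (68456 to 74128 CPM). In WT MI against WT SH, 4 of the 10 were lower with an adjusted p under 0.1 and 0 higher, so the gap is not particular to KO SH. Set against these markers, Slc25a4 stood at 17.9 to 20.9 CPM per 1000 marker CPM in WT SH and 17.1 to 17.5 in KO SH, which did not overlap. Slc25a25 also stayed apart, at 0.103 to 0.137 against 0.0891 to 0.0996, and so did Slc25a46, at 0.876 to 0.995 against 0.824 to 0.874. Slc25a33 overlapped slightly on this scale, with a lowest value of 0.0338 in WT SH and a highest value of 0.0340 in KO SH. Slc25a11 (0.929 to 1.03 against 0.945 to 1.09), Slc25a12 (0.792 to 0.857 against 0.794 to 0.854) and Slc25a22 (0.107 to 0.141 against 0.103 to 0.113) overlapped. No test was made on this scale. Sums of other marker lists were also lower in KO SH without overlap, at 762 to 799 against 827 to 854 CPM for 6 endothelial genes, 337 to 382 against 408 to 504 CPM for 6 proliferation genes and 306 to 349 against 350 to 454 CPM for the skeletal muscle genes. Of 7 macrophage genes 2 were lower with an adjusted p under 0.1. Their part in the member values was not tested.

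After MI fewer members passed the comparison of the genotypes. In KO MI against WT MI, 3 of the 43 members had an adjusted p under 0.1, against 3.07% of all genes tested, and all 3 were lower in KO MI, against 2.04% of all genes. None reached the minimum fold of a DEG, which 1.73% of all genes did, and 8 members had an unadjusted p under 0.05 against 12.4% of all genes. DESeq2 likewise called 0, against 2.26% of all genes. The 3 members were Slc25a46, Slc25a20 and Slc25a22.

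Slc25a46 measured 75.7, 71.1, 73.8 and 82.9 CPM in WT MI and 69.4, 58.8, 61.2 and 57.0 CPM in KO MI, a log2 fold change of -0.30 (SE 0.07, edgeR adjusted p = 0.0361). The groups did not overlap, and it was thus lower without Lrrc10 in sham and MI ventricles alike. Slc25a22 measured 8.11, 7.12, 10.1 and 9.47 CPM in WT MI and 6.81, 5.18, 6.19 and 7.79 CPM in KO MI, a log2 fold change of -0.43 (SE 0.12, edgeR adjusted p = 0.0869) with overlapping groups. Slc25a20 measured 43.6, 43.3, 48.4 and 52.5 CPM in WT MI and 44.0, 37.1, 38.2 and 38.1 CPM in KO MI, a log2 fold change of -0.25 (SE 0.07, edgeR adjusted p = 0.0646). KO MI replicate 1 was the library that overlapped with WT MI. Among all 8 fits without 1 library, Slc25a46 missed the threshold without WT MI replicate 4 (adjusted p = 0.140), Slc25a20 missed it in 4 and Slc25a22 in 5. The exact permutation test gave p = 0.0286 for Slc25a46, 0.0571 for Slc25a22 and 0.0857 for Slc25a20. When the fit held the libraries of WT MI and KO MI alone, 0 of the 43 members passed, beside 1.23% of all genes.

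Several members that were lower in KO SH had overlapping groups after MI. Slc25a33 measured 2.73, 3.06, 2.70 and 2.95 CPM in WT MI and 2.93, 2.78, 3.32 and 2.68 CPM in KO MI, a log2 fold change of 0.03 (SE 0.15). Slc25a4 stood at 1470 ± 56.3 CPM in WT MI and 1434 ± 128 CPM in KO MI (SD, n = 4), a log2 fold change of -0.04 (SE 0.08). Slc25a25 stood at 8.89 ± 0.454 CPM in WT MI and 7.47 ± 0.803 CPM in KO MI (SD, n = 4), a log2 fold change of -0.25 (SE 0.09, edgeR adjusted p = 0.200).

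KO MI replicate 7 was looked at more closely because its values, once seen, lay away from the rest of its group for some members. Its Slc25a34 value was not among the outliers flagged by Dixon's test, which are listed further below. KO MI replicate 7 had 17.8 CPM of Slc25a34, a mitochondrial carrier of uncertain substrate, where the other KO MI libraries had 8.40, 8.54 and 10.4 CPM and WT MI had 15.5, 12.3, 17.2 and 16.6 CPM. With all libraries Slc25a34 had a log2 fold change of -0.46 (SE 0.18, edgeR adjusted p = 0.280) in KO MI against WT MI. Without KO MI replicate 7 this was -0.75 (SE 0.12, edgeR adjusted p = 0.00192). Each library was left out in turn, and this fit is singled out because of the value it leaves out. Its adjusted p is therefore a description and no independent support. Without that library 7 members had an adjusted p under 0.1, against 3 with it, and 2 were DEGs, Slc25a22 and Slc25a34. The share of all genes rose as well, to 6.16% past the adjusted p and 2.88% DEGs. Slc25a34 was also a DEG when KO MI replicates 2 and 7 were both left out, the libraries in which the skeletal muscle gene Myh8 stood at 42.3 and 58.5 CPM against at most 5.10 CPM elsewhere. In that fit Slc25a46 (adjusted p = 0.202), Slc25a20 (adjusted p = 0.281) and Slc25a22 (adjusted p = 0.101) no longer passed in edgeR.

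**Figure D3:**
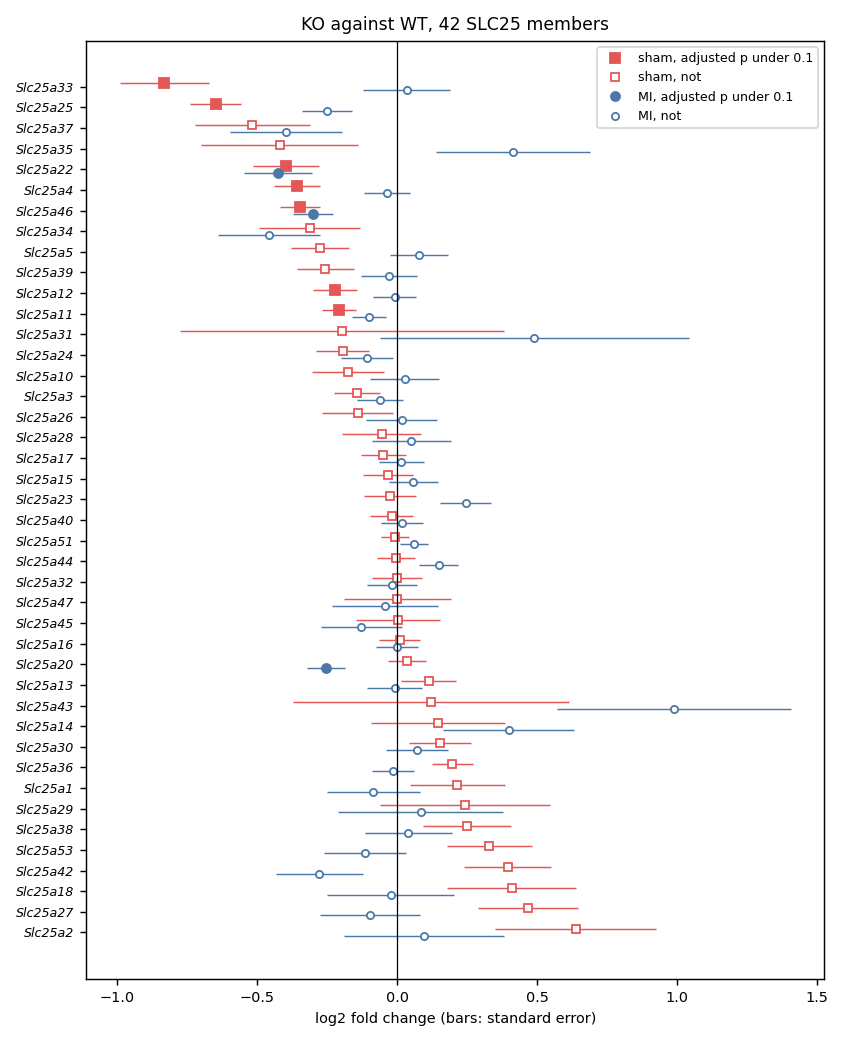
Log2 fold change (x axis) with its standard error for 42 of the 43 members (y axis) in KO against WT, as red squares for sham and blue circles for MI. Filled symbols have an edgeR adjusted p under 0.1: 7 in sham and 3 in MI, all to the left of 0.

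MI on its own, in wild-type mice, moved no member past the threshold. In WT MI against WT SH, edgeR found 0 of the 43 members with an adjusted p under 0.1, against 5.31% of all genes tested, and 0 DEGs against 2.78%. An unadjusted p under 0.05 was reached by 10 members and by 16.5% of all genes. DESeq2 gave 2 members an adjusted p under 0.1, against 7.57% of all genes, and called 0 DEGs, against 3.39%. Slc25a24 measured 12.9, 14.7, 16.5 and 15.8 CPM in WT SH and 18.8, 17.3, 17.9 and 17.6 CPM in WT MI, without overlap (log2 fold change 0.26, SE 0.09, edgeR adjusted p = 0.148). Slc25a44, a carrier of branched-chain amino acids, stood at 8.90 ± 0.625 CPM in WT SH and 7.75 ± 0.457 CPM in WT MI (SD, n = 4; edgeR adjusted p = 0.136), also without overlap. The log2 fold changes of the 43 members ran from -0.47 to 0.41 with a median of -0.03.

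MI in Lrrc10-/- mice went with changes in both directions. In KO MI against KO SH, 9 of the 43 members had an adjusted p under 0.1, against 17.5% of all genes tested, with 5 higher against 10.2% and 4 lower against 7.32%. Of these, 4 were DEGs, against 7.42% of all genes. Slc25a33 and Slc25a43 were the higher ones, against 5.31% of all genes, and Slc25a27 and Slc25a42 the lower ones, against 2.11%. This comparison uses the same KO SH libraries as KO SH against WT SH, so a low or high KO SH value enters both. The median log2 fold change of the members was -0.03, and that of all genes tested was -0.01.

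All 7 tested carriers of adenine nucleotides and phosphate had a log2 fold change above 0, with a median of 0.30, and 3 rose past the threshold. Of these 7, Slc25a3 had only 0.01 (SE 0.08) and Slc25a31 had 0.61 with a wide SE of 0.56. The 3 that passed were Slc25a5, Slc25a24 and Slc25a23. Slc25a5 measured 109, 111, 111 and 104 CPM in KO SH and 144, 166, 150 and 98.0 CPM in KO MI, so that 3 KO MI libraries lay above and KO MI replicate 7 below all of KO SH (log2 fold change 0.36, SE 0.10, edgeR adjusted p = 0.0330). Slc25a24 measured 11.9, 14.3, 12.7 and 13.3 CPM in KO SH and 15, 19.4, 17.5 and 14.5 CPM in KO MI, without overlap (log2 fold change 0.35, SE 0.09, edgeR adjusted p = 0.0232). Slc25a23 measured 20.1, 21.0, 24.4 and 20.5 CPM in KO SH and 24.4, 32.8, 26.2 and 22.4 CPM in KO MI (log2 fold change 0.30, SE 0.09, edgeR adjusted p = 0.0439). Of these 3, Slc25a24 passed in all 8 fits without 1 library, and Slc25a5 and Slc25a23 did not pass without KO MI replicate 2. Slc25a23 did not pass without KO SH replicate 1 or 4 either, and with the libraries of this comparison alone in the fit Slc25a5 (adjusted p = 0.130) and Slc25a23 (adjusted p = 0.152) both missed the threshold. Slc25a4, whose level was 1274 ± 9.76 CPM in KO SH against 1434 ± 128 CPM in KO MI (SD, n = 4), had a log2 fold change of 0.17 (SE 0.08, edgeR adjusted p = 0.192).

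The nucleotide carrier Slc25a33 rose from 2.05 ± 0.365 CPM in KO SH to 2.92 ± 0.281 CPM in KO MI (SD, n = 4), a log2 fold change of 0.52 (SE 0.16, edgeR adjusted p = 0.0443), and the groups did not overlap. The coenzyme A carrier Slc25a42 measured 21.0, 20.6, 21.8 and 17.6 CPM in KO SH and 14.4, 9.57, 11.2 and 19.3 CPM in KO MI, with KO MI replicate 7 the one library inside the KO SH range. Its log2 fold change was -0.58 (SE 0.16, edgeR adjusted p = 0.0232), and it lay between -0.79 (without KO MI replicate 7) and -0.44 (without KO MI replicate 2) in the fits without 1 library. It passed the adjusted p in all 8 of these but was no DEG without KO MI replicate 2 or 3. Slc25a27 measured 5.23, 5.89, 5.36 and 6.74 CPM in KO SH and 4.37, 2.74, 3.35 and 5.40 CPM in KO MI (log2 fold change -0.56, SE 0.18, edgeR adjusted p = 0.0519), and again KO MI replicate 7 was the highest of its group. The glutamate carrier Slc25a22 fell by 0.33 on the log2 scale (SE 0.12, edgeR adjusted p = 0.0889), from 8.11 ± 0.433 to 6.49 ± 1.09 CPM (SD, n = 4). Slc25a13 measured 43.6, 47.2, 41.6 and 46.7 CPM in KO SH and 43.9, 29.2, 38.0 and 35.7 CPM in KO MI (log2 fold change -0.29, SE 0.10, edgeR adjusted p = 0.0682). Slc25a43, a carrier without a settled substrate, was near the detection floor. It measured 0.135, 0.216, 0.146 and 0.105 CPM in KO SH against 0.427, 0.374, 0.212 and 0.428 CPM in KO MI (log2 fold change 1.24, SE 0.44, edgeR adjusted p = 0.0739), and it had between 2 and 21 counts per library in the whole series. Several of these calls were lost when any 1 of several different libraries was left out, while the direction stayed the same. In the 8 fits without 1 library the adjusted p exceeded 0.1 in 3 for Slc25a33 (KO SH replicate 1, KO SH replicate 4 or KO MI replicate 3 left out), in 4 for Slc25a27, in 5 for Slc25a13 and Slc25a43 and in 6 for Slc25a22, so that the call was lost. With the KO SH and KO MI libraries alone in the fit, 4 members passed in place of 9, beside 10.5% of all genes. The exact permutation test gave p = 0.0286 for Slc25a24 and Slc25a33. For the other members that passed in the main fit this test gave p from 0.0571 to 0.143.

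Markers of other cell types differed between KO MI and KO SH as well. Of the marker lists, 6 of 7 macrophage, 7 of 7 erythroid, 6 of 6 proliferation, 4 of 8 fibroblast and 5 of 6 skeletal muscle genes tested were higher in KO MI than in KO SH with an adjusted p under 0.1, and 0 were lower. Of 6 endothelial genes 0 were higher and 2 lower, and of the brown adipocyte genes 0 were higher and 1 lower. Of 4 thymocyte genes 0 passed. The cardiomyocyte markers were 2 higher and 2 lower of 10, with a sum of 72692 to 74854 CPM in KO SH and 68456 to 74128 CPM in KO MI. The summed macrophage level ranged from 47.8 to 55.8 CPM in KO SH and from 60.3 to 126 CPM in KO MI, and that of the skeletal muscle markers from 306 to 349 CPM and from 396 to 736 CPM, where Actn3 and Pvalb were at 0 in at least 1 library. Their part in the member values was not tested. The number of members past the adjusted p changed between fits and did not follow the share of all genes closely. It was 16 without KO MI replicate 7 (28% of all genes), 11 without KO MI replicates 2 and 7 (16.9%) and 8 without KO MI replicate 1 (19.7%). It was 7 without KO SH replicate 3 (12.8%), 6 without KO SH replicate 2 (12.9%) and 5 without KO MI replicate 3 (11.9%). It was 4 without KO SH replicate 1 (12%), 3 without KO MI replicate 2 (9.55%) and 3 without KO SH replicate 4 (12.1%).

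**Figure D4:**
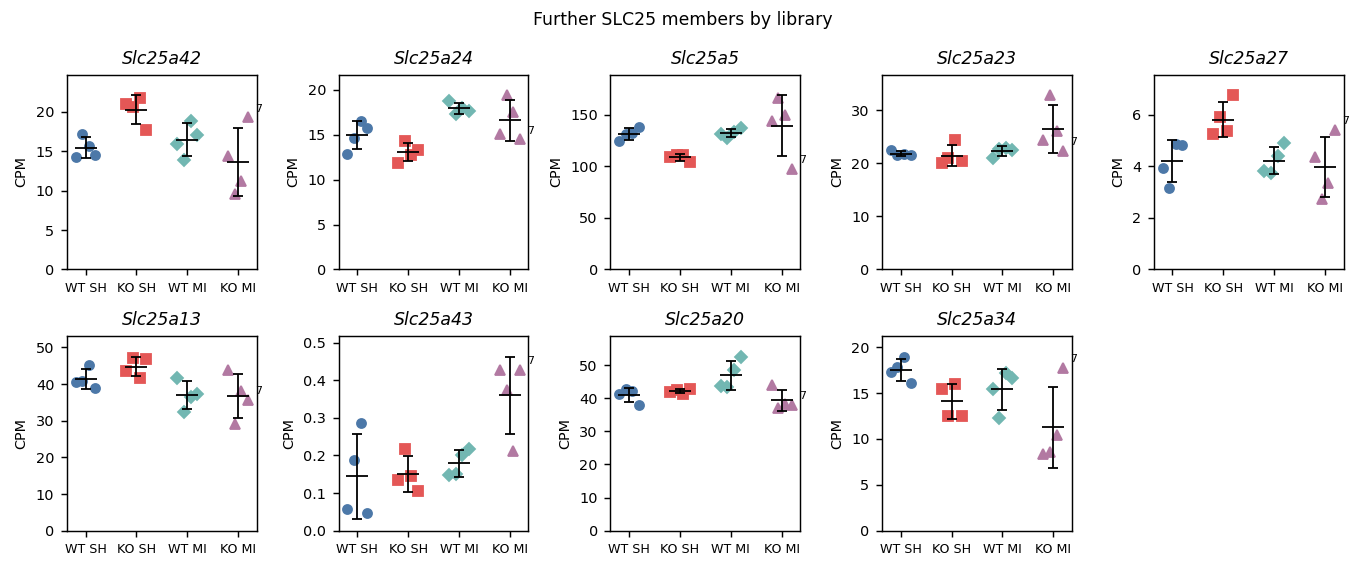
CPM by library for further members, with the 4 groups on the x axis, a linear y axis from 0, and the group mean and SD as a black line with bars. KO MI replicate 7 (marked 7) is the highest KO MI library for Slc25a42, Slc25a27 and Slc25a34 and the lowest for Slc25a5.

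**Figure D5:**
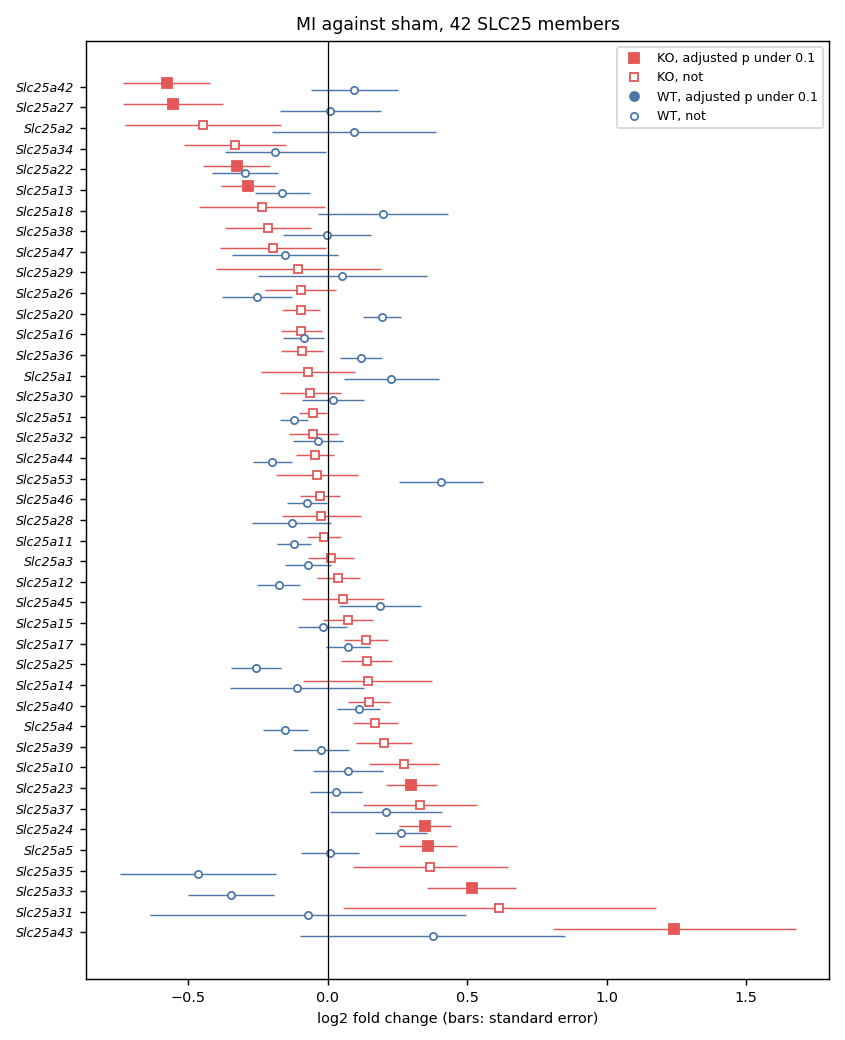
Log2 fold change (x axis) with its standard error for 42 of the 43 members (y axis) in MI against sham, as red squares for Lrrc10-/- and blue circles for wild-type mice. Filled symbols have an edgeR adjusted p under 0.1: 9 in the Lrrc10-/- mice and 0 in the wild-type mice.

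Whether the effect of MI differed between the genotypes was tested by the interaction. In edgeR 0 of the 43 members had an adjusted p under 0.1, against 0.0248% of all genes, and 9 had an unadjusted p under 0.05 against 13.6% of all genes. The smallest adjusted p was that of Slc25a33, with a log2 value of 0.87 (SE 0.22, edgeR adjusted p = 0.156), from a log2 fold change of -0.35 (SE 0.15) with MI in wild-type and 0.52 (SE 0.16) in Lrrc10-/- mice. Slc25a42 had -0.67 (SE 0.22, adjusted p = 0.217), Slc25a25 had 0.40 (SE 0.13, adjusted p = 0.211), Slc25a20 had -0.29 (SE 0.10, adjusted p = 0.217) and Slc25a4 had 0.32 (SE 0.11, adjusted p = 0.242). DESeq2 called Slc25a33 (adjusted p = 0.0276) and Slc25a42 (adjusted p = 0.0839), where it called 1.43% of all genes. Without KO MI replicate 7, edgeR called 4 members, Slc25a27, Slc25a33, Slc25a35 and Slc25a42, where it called 4.2% of all genes. A difference between the genotypes in the effect of MI on these members therefore depended on the tool and on that library.

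Ratios between related carriers are described without a test and without a share over other gene pairs. Every pair examined is named. The log2 ratio of Slc25a12 to Slc25a13 ranged from 0.63 to 0.87 in WT SH and from 0.38 to 0.51 in KO SH, without overlap, and from 0.58 to 0.93 in WT MI and 0.45 to 1.11 in KO MI. The log2 ratio of the pyrimidine nucleotide carriers Slc25a33 and Slc25a36 ranged from -4.00 to -2.96 in WT SH and from -4.85 to -4.35 in KO SH, also without overlap, and from -4.10 to -3.93 in WT MI and -4.21 to -3.81 in KO MI. For the calcium-regulated carriers Slc25a23 and Slc25a25 it ranged from 0.94 to 1.27 in WT SH, 1.5 to 1.87 in KO SH, 1.16 to 1.45 in WT MI and 1.53 to 1.96 in KO MI, so the ranges of both KO groups lay above those of both WT groups. The WT SH and KO SH ranges overlapped for Slc25a39 and Slc25a40 (-0.90 to -0.46 and -1.06 to -0.74) and Slc25a11 and Slc25a10 (3.59 to 3.91 and 3.58 to 3.91). They also overlapped for Slc25a37 and Slc25a28 (0.73 to 1.585 and 0.60 to 0.92) and Slc25a23 and Slc25a24 (0.40 to 0.81 and 0.55 to 0.93). The last pair did not overlap after MI (0.16 to 0.39 in WT MI and 0.58 to 0.76 in KO MI). Slc25a4 and Slc25a5 kept overlapping ranges between WT SH (3.37 to 3.98) and KO SH (3.52 to 3.60). Per length, Slc25a4 stood on average 7.46 times above Slc25a5 in WT SH, 7.00 times in KO SH, 6.65 times in WT MI and 6.29 times in KO MI. In KO MI replicate 7 the mitoferrins Slc25a37 and Slc25a28 had a log2 ratio of -0.01, and the highest KO MI library had 1.55.

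Mitochondrial transport genes whose symbols do not start with Slc25a were counted in the same way. The uncoupling proteins and Mtch1 and Mtch2 among them belong to the same protein family by sequence. Of 31 such genes tested (uncoupling proteins, Mtch1 and Mtch2, the pyruvate carrier, sideroflexins, outer membrane channels, the calcium uniporter, ABC transporters and carnitine shuttle enzymes), 5 passed in KO SH against WT SH, beside 12.3% of all genes. Mpc2, a subunit of the pyruvate carrier, was lower in KO SH by a log2 fold change of -0.52 (SE 0.11, edgeR adjusted p = 0.00737), and Ucp2, Cpt1b and Smdt1 were also lower, while Sfxn5 was higher. In KO MI against WT MI 4 passed, beside 3.07% of all genes, with Ucp3, Ucp2 and Cpt2 lower and Tspo higher. Ucp3, the uncoupling protein of muscle and heart, had a log2 fold change of -1.06 (SE 0.27, edgeR adjusted p = 0.0537) in that comparison and -1.14 (SE 0.27, edgeR adjusted p = 0.0127) in KO MI against KO SH, where 6 of the 31 passed beside 17.5% of all genes. In WT MI against WT SH 1 of the 31 passed, beside 5.31% of all genes. It was Sfxn1, a sideroflexin that carries serine, with a log2 fold change of 0.28 (SE 0.07, edgeR adjusted p = 0.0476). Nnt, the inner membrane transhydrogenase in which substrains of C57BL/6 differ, ranged from 51.7 to 121 CPM in WT SH and from 40.1 to 54.4 CPM in KO SH (log2 fold change -0.96, edgeR adjusted p = 0.0121). Between KO MI and WT MI its groups overlapped (log2 fold change -0.51, edgeR adjusted p = 0.307), and between WT MI and WT SH, of one genotype, the log2 fold change was -0.53 (edgeR adjusted p = 0.208). How far the genetic backgrounds of the KO and WT mice differ was not tested.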

How the data were processed

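The deposited table holds RSEM expected counts per gene as whole numbers, without normalization, for the ventricles of 16 mice, and the authors made it from strand-specific read pairs of 150 bp. The paper's methods name Skewer 0.1.123, STAR 2.5.3a, RSEM 1.3.0, DESeq2 1.36.0 and GRCm39. The submitters' processing notes name bcl2fastq 2.17, cutadapt 3.4, FastQC, HISAT2 2.2.1, RSEM 1.1.17, DESeq2 and GRCm39, and which set made the table was not settled. RSEM divides reads that match several genes, so close paralogs such as Slc25a4 and Slc25a5 may share reads. Slc25a5-ps, a pseudogene, had 0 counts in all libraries. The annotation release is not given in the sources used here. Symbols and positions came from GENCODE M39, which matched 47772 of 51912 identifiers, and the rest held 0.57% to 0.786% of the counts of a library.

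Groups came from the labels. Genes whose counts added up to 10 or more in each group, 1 reading of the minimum in the paper's methods, were fitted over all 16 libraries with edgeR 4.0.16 in R 4.3.3 (TMM, quasi-likelihood F-test, two-sided, 1 coefficient per group). P-values had Benjamini-Hochberg adjustment over all 20159 genes, in each of 5 contrasts. DEGs needed an adjusted p below 0.1 and a log2 change of 0.5 or more in size. The exact permutation test used log2(CPM + 0.05). Scripts were tested on simulated data. Alternatives were DESeq2 1.42.0, its size factors in edgeR, library sizes without mitochondrially encoded genes, no filter, edgeR's filterByExpr, a robust fit, the libraries of a contrast alone, a replicate block, a term for sex, an adjusted p under 0.05, no minimum fold, each library left out in turn, and, chosen after seeing the data, KO MI replicates 2 and 7 left out.

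Values by library, or group means with SD, are given in at least 1 comparison for members with an adjusted p under 0.1 in any contrast. The same holds for Slc25a33 and for the 5 members highest per length. Slc25a34, Slc25a35 and Slc25a37 were singled out after their values were seen. The members, the lists and the tests were chosen with earlier results of these data known. Promoter windows were read from GRCm39. Those of Slc25a25, Slc25a22, Slc25a11, Slc25a12 and Slc25a46 overlapped annotated exons and are not shown. The values of 1 member on its own and some sequence are not reported here.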

Additional observations from a re-analysis of the deposited data

Results flagged for a closer look

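Of the 43 members tested, 42 were examined in each of the 4 groups for a library far from the other 3 (Dixon's test at the 95% level), which makes 168 combinations. Of these 7 stood out, and chance would give about 8.4. KO MI replicate 7 was the library in 3 of them. It measured 4.95 CPM of Slc25a10, the dicarboxylate carrier, against 7.36 to 7.73 CPM in the other KO MI libraries, 6.5 CPM of the mitoferrin Slc25a37 against 10.8 to 11.4 CPM, and 9.50 CPM of the glutathione carrier Slc25a39 against 11.9 to 12.3 CPM.

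The other 4 fell on 4 different libraries. Slc25a20 measured 44.0 CPM in KO MI replicate 1 against 37.1 to 38.2 CPM in the rest of the group. Slc25a37 measured 18.8 CPM in WT MI replicate 4 against 10.9 to 11.7 CPM. Slc25a18, a glutamate carrier, measured 0.517 CPM in WT MI replicate 2 against 0.652 to 0.673 CPM. Slc25a51, the NAD carrier, measured 56.6 CPM in WT SH replicate 2 against 59.7 to 59.9 CPM.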

How the results depend on the processing

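The number of SLC25 members called as DEGs was recomputed under each alternative. The share of all genes called in the same fits is given in parentheses. In KO SH against WT SH it was 2 (5.01%). It was 3 with Slc25a37 added in DESeq2 (5.33%), with the libraries of the contrast alone (5.78%) and with a term for sex (5.2%). It was between 2 and 3 in the fits without 1 library (3.35% to 6.15%), and 7 when the minimum fold was dropped (12.3%). In KO MI against WT MI it was 0 (1.73%), with 3 where no minimum fold was set (3.07%). It was 1, Slc25a34, without KO MI replicates 2 and 7 (1.5%), and 0 to 2 in the fits without 1 library (1.14% to 2.88%). In WT MI against WT SH it stayed at 0 throughout (1.42% to 5.31%). In KO MI against KO SH it was 4 (7.42%), with 3 without the filter (4.83%) and with the libraries of the contrast alone (5.49%). It was 2 at an adjusted p under 0.05 (5.69%), 9 with no minimum fold change (17.5%), and 1 to 5 in the fits without 1 library (4.43% to 10.9%). The interaction had 0 (0.0248%), with 2 in DESeq2 (1.43%) and 3 without KO MI replicates 2 and 7 (1.89%). It had 0 to 4 in the fits without 1 library (0.01% to 4.2%), where the 4 came without KO MI replicate 7 (4.2%). The causes were not tested.

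Whether replicate numbers pair the animals is not known. Correlations of same-numbered libraries ran from -0.0623 to 0.112. Without those of differently numbered libraries beside them, they cannot tell whether animals were paired. With the replicate number as a block, KO MI against WT MI had 3 members called (beside 2.56% of all genes), KO MI against KO SH 6 (9.96%) and the interaction 3 (3.42%). KO SH against WT SH had 2 (5.68%) and WT MI against WT SH 0 (3.31%). Number 7 occurs in KO MI alone, so the block gave KO MI replicate 7 a coefficient of its own. That library then adds nothing to the KO MI estimates.

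Of 30 results on single members, 247 of 287 alternatives and 210 of 272 fits without 1 library kept the side of the threshold, and 0 changed direction. These 30 had an adjusted p under 0.1 in the main fit or were DEGs in at least 1 other fit. Results of the second kind crossed the threshold at least once by this choice, so the counts are no general rate of stability. With 4 libraries a group, changes in members near the detection floor, such as Slc25a43, Slc25a18 and Slc25a31, are poorly resolved.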
